A study of Mus musculus with 28 samples.

Results

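Neurons of the motor cortex (M1) of CD1 mice that had been exposed to ethanol before birth and showed no reporter activity were compared, gene by gene, with neurons of the injection control that also showed none. The labels alone defined the comparison. It takes the 7 RFP-negative neurons of the ethanol (EtOH) group against the 6 RFP-negative neurons of the phosphate-buffered saline (PBS) group, 13 of the 28 single neurons of the series, over the 1024 genes of the deposited table. In all groups the embryos were electroporated in utero at embryonic day 15 with pHSE-FLPo (a FLPo recombinase driven by a heat shock response element), pFRT-RFP (the reporter that the recombinase activates) and pCAGIG (GFP in every electroporated cell). EtOH dams received 25% ethanol in PBS intraperitoneally on embryonic days 16 and 17, with a dose of either 4 g/kg or 1 g/kg, and the dose behind a given neuron was not stated. PBS dams received PBS alone. All neurons were collected at postnatal day 30, and RFP-negative means GFP without RFP. The remaining 15 neurons, RFP-positive after EtOH, are given beside some results. Embryos of both groups were thus given the same plasmids. Whether an RFP-negative neuron had taken up the FLPo and RFP plasmids was not measured, since GFP marks pCAGIG alone.

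Ethanol is a cell stressor known to engage the heat shock response, in which heat shock factors bind elements built from inverted GAA units and raise the transcription of chaperone genes. Chaperones fold proteins in the cytosol and the endoplasmic reticulum, while the proteasome and the lysosome degrade them. Neurons draw most of their ATP from the respiratory chain, whose subunits are encoded partly by mitochondrial DNA and partly by nuclear genes.

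Each neuron had 1 value per gene on a log scale whose base was not stated and which was taken as log2, so that a difference of 2 would be a 4-fold difference of levels. No label names the animal of a neuron, so each group counts as 1 sample: no test was made, and SDs give the spread among neurons only. All values were above 1, and their histogram had a lowest mode at 1.75 and a trough at 4. A value over 4 is called above the trough, and a lower one was not read as a missing transcript. Read numbers, and hence depth, are unknown. The number of genes above the trough was 274 at the lowest, 327 at the median and 366 at the highest in EtOH neurons, against 286, 323.5 and 412 in PBS neurons. PBS neuron 1 stood apart, with an upper quartile of its values of 8.05, against 4.92 to 6.28 in the other 12 neurons. EtOH neuron 1 and PBS neuron 6 each shared 1 exactly equal value with other neurons, while the other 11 shared between 8 and 17, and list medians over these 11 neurons are given beside those over all 13.

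Few markers of cortical cell types were measured. Of 10 listed for pyramidal neurons there was 1, Nrgn, and of 7 for upper layers 1, Mef2c. Both were above the trough in most neurons of each group. No listed deep-layer marker was measured, so the layer of a neuron could not be told. Nrgn, which encodes the postsynaptic calmodulin-binding protein neurogranin, had 5.85, 8.36 and 9.31 in the lowest, median and highest EtOH neuron, against 3.13, 7.58 and 8.86 in PBS neurons. Mef2c, a transcription factor of cortical excitatory neurons, had 2.68, 9.23 and 10.73 in EtOH neurons and 5.91, 9.83 and 10.16 in PBS neurons. Gad1, the GABA-synthesising enzyme of interneurons, was above the trough in EtOH neurons 4 and 7 and in PBS neuron 4, where it reached the highest value of the table, 13.22. PBS neuron 4 also had the lowest Nrgn value of the 13 neurons. Of the 9 marker lists, 3 (deep layers, endothelial cells, blood) had 0 genes in the table.

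Glial markers differed between the groups. Both measured astrocyte markers of 14 listed had lower means in EtOH neurons. Slc1a2, the glial glutamate transporter, had 1.43, 2.01 and 9.02 in EtOH neurons and 2.04, 7.89 and 9.78 in PBS neurons, a difference of -2.06 (-1.39 without PBS neuron 5). Aldoc, an astrocyte-enriched aldolase, had 1.24, 1.70 and 2.76 in EtOH neurons and 1.34, 3.09 and 8.94 in PBS neurons, a difference of -2.13 (-1.14 without PBS neuron 4). The median of both markers per neuron was 1.53 to 5.31 in EtOH neurons, against 1.95 to 7.25 in PBS neurons. Of the 3 measured oligodendrocyte markers among 15 listed, the myelin gene Mbp was above the trough in EtOH neuron 1 and in PBS neurons 2, 4, 5 and 6, with a difference of -3.71. Qdpr, a pteridine reductase enriched in oligodendrocytes, had a difference of 0.60, or -0.43 without EtOH neuron 1. The median of the 3 markers per neuron was 2.09 to 8.26 in EtOH neurons and 2.30 to 8.74 in PBS neurons. The microglial markers Cst3 and Csf1r, the 2 measured of 13 listed, differed by 0.20 and 0.59, and the highest Csf1r value, 11.36, was in EtOH neuron 7. Both differences turned negative when 1 neuron was left out, to -0.32 for Cst3 without EtOH neuron 4 and to -0.70 for Csf1r without EtOH neuron 7. None of the markers was at 0 in any neuron, but all values of the table were above 1, so this tells nothing about glial RNA. The part of glial RNA in the other differences was not tested.

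**Figure D1:**
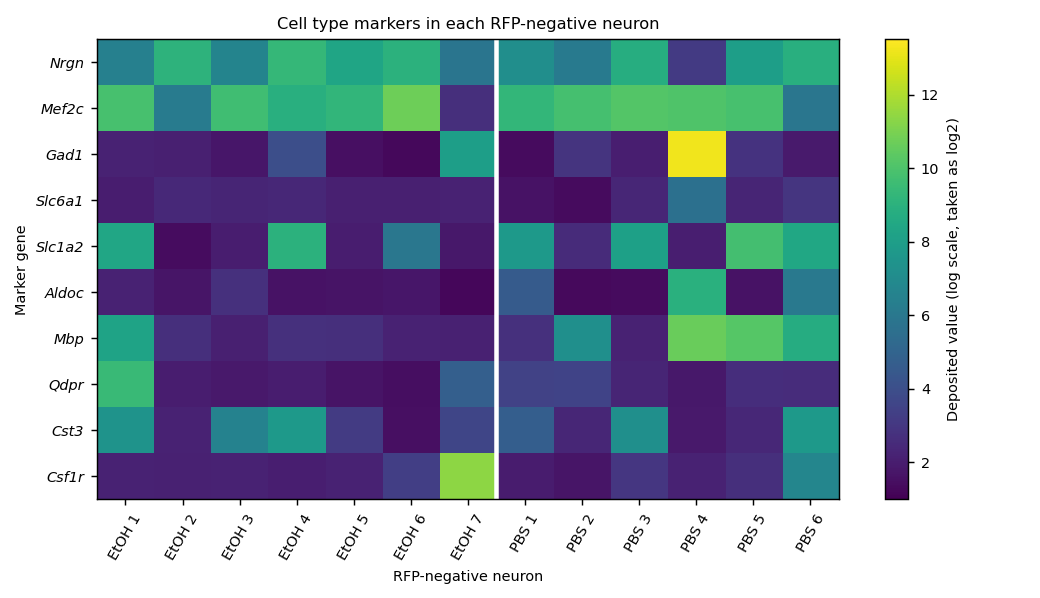
Deposited value (colour, log scale taken as log2) of 10 measured cell type markers in each RFP-negative neuron, with 7 EtOH neurons left of the white line and 6 PBS neurons right of it. Nrgn and Mef2c are high in most neurons of both groups, while Mbp is above 4 in 1 EtOH neuron and 4 PBS neurons.

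The comparison asks how neurons exposed to ethanol before birth, and not marked by the heat shock reporter, differed at postnatal day 30 from neurons of the injection control. Of the 1024 genes, 83 had a mean at least 2 higher in EtOH neurons, which is 8.11% of the table, and 116 had a mean at least 2 lower, which is 11.3%. Together these were 199 genes, or 19.4%. Means were higher in EtOH neurons for 48.5% of the genes and lower for 51.5%, and the counts of each list below stand against these shares. The differences had a median of -0.06, with 5% of the genes under -2.71 and 5% over 2.30. Neurons of 1 group varied widely. The median pooled SD of a gene was 2.49, and for 130 genes (12.7%) the difference exceeded that gene's pooled SD. The groups did not overlap for 3 genes with lower EtOH values, Tubb5, Sez6l2 and Ncbp2 (0.293% of the table), and for 2 with higher EtOH values (0.195%), among them Rad21. The split between higher and lower depends on scaling. Scaling each neuron to 1 upper quartile moved the median of all genes by 0.55 and gave 136 higher and 60 lower genes, and PBS neuron 1 has the high upper quartile given above. It adds the same amount to every difference, so that small negative differences turn positive, among them those of mt-Co1 and Tuba1a and 9 of the list medians, all those given as -0.50 to -0.06.

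The groups also differed in how many neurons were above the trough. The share of neurons above it was at least 50 percentage points higher in EtOH neurons for 26 genes (2.54%) and at least 50 points lower for 52 genes (5.08%). There were 30 genes above it in 0 EtOH neurons and at least 3 PBS neurons, among them Tubb5, Psap and Aldoc, and 22 genes in 0 PBS neurons and at least 3 EtOH neurons, among them Chmp2a, Rnf4, Hmgcs1 and Prkar2a. For the 211 genes above the trough in at least 3 neurons of each group, the mean of those neurons differed by 0.22 at the median, was at least 2 higher in EtOH neurons for 16 genes and at least 2 lower for 15. Genes above the trough in all 13 neurons numbered 15, and 52 genes were above it in none.

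The largest lower mean was that of Hnrnpk (ENSMUSG00000021546, chromosome 13, 58391142 to 58403343 on GRCm38), which encodes an RNA-binding protein of the hnRNP family that acts in splicing, export and translation. Its values were 3.0, 2.87, 3.23, 3.23, 9.79, 3.35 and 3.13 in EtOH neurons 1 to 7, against 9.59, 10.84, 10.80, 9.22, 10.51 and 10.64 in PBS neurons 1 to 6. All EtOH neurons but number 5 lay below every PBS neuron. The means were 4.08 ± 2.52 in EtOH neurons and 10.27 ± 0.69 in PBS neurons (SD, n = 7 and 6), a difference of -6.18. Its exons share 330 bases with Rmi1 on the opposite strand, and reads of both genes cannot be told apart there. Ncbp2, which binds the cap of nuclear RNA and had the sixth largest lower mean, had 1.63, 1.92 and 2.26 in the lowest, median and highest EtOH neuron, against 2.79, 7.33 and 9.40 in PBS neurons. The groups did not overlap, and the highest EtOH and the lowest PBS neurons were all below the trough. Its exons share 131 bases with Senp5 on the opposite strand.

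The next 2 were genes of protein degradation. Psmb6, a catalytic subunit of the proteasome, had 2.32, 2.33, 8.10, 2.00, 1.98, 2.2 and 1.37 in EtOH neurons 1 to 7, against 6.95, 10.37, 9.64, 8.62, 1.95 and 10.11 in PBS neurons 1 to 6. EtOH neuron 3 and PBS neuron 5 were the exceptions in an otherwise separate pair of groups. The lysosomal protease gene Ctsb had 2.96, 3.01, 2.24, 2.42, 3.15, 2.06 and 7.37 in EtOH neurons 1 to 7, against 10.70, 2.29, 10.14, 10.21, 10.40 and 6.13 in PBS neurons 1 to 6. Here EtOH neuron 7 and PBS neuron 2 broke the pattern, and 774 bases of Ctsb exons lie opposite Fdft1. Psap, the precursor of the saposins that help lysosomal enzymes reach their lipids, had 1.52, 2.15 and 3.53 in EtOH neurons and 2.30, 5.97 and 11.35 in PBS neurons. It was high in PBS neurons 4, 5 and 6 and in 0 EtOH neurons. Atp6v0c, the membrane ring subunit of the vacuolar proton pump that acidifies lysosomes and synaptic vesicles, had 2.26, 4.05 and 7.17 in EtOH neurons and 2.19, 9.63 and 10.58 in PBS neurons. All PBS neurons but number 3 lay above every EtOH neuron. Ctsb, Psap and Gpm6b are also expressed by glia, and the part of glial RNA in their differences was not tested. The myelin gene Mbp and Psap were both high in PBS neurons 4, 5 and 6. EtOH neuron 1 and PBS neuron 2 had 8.26 and 7.24 for Mbp and 2.87 and 2.70 for Psap. Ctsb was above the trough in PBS neurons 1 and 3, where Mbp was 2.76 and 2.2, and in PBS neurons 4, 5 and 6. Gpm6b was above the trough in the same PBS neurons and in EtOH neuron 6, where Mbp was 2.19.

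Genes of translation, the endoplasmic reticulum and protein modification were among them as well. Eif2s1, the subunit of initiation factor eIF2 that stress kinases phosphorylate, had 1.61, 1.97 and 6.41 in EtOH neurons and 1.71, 8.77 and 10.53 in PBS neurons, with 1 of 7 and 5 of 6 above the trough. Hsp90b1, the HSP90 chaperone of the endoplasmic reticulum, had 1.38, 1.79 and 3.65 in EtOH neurons and 1.29, 6.29 and 9.96 in PBS neurons. It was high in PBS neurons 2, 4 and 6 only, and its exons overlap those of 3 other annotated genes. Mgea5, the enzyme that removes O-GlcNAc from proteins, had 1.70, 2.48 and 5.28 in EtOH neurons and 1.75, 8.21 and 10.97 in PBS neurons, with a difference of -4.71. Ogt, which attaches the same sugar, differed by -1.94, or -0.64 without PBS neuron 5.

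The remaining genes of this direction encode membrane, cytoskeletal and mitochondrial proteins. Sez6l2, a neuronal membrane protein related to the seizure gene Sez6, had 1.28, 1.55 and 1.66 in EtOH neurons and 1.99, 5.79 and 11.06 in PBS neurons, with no overlap. PBS neurons 5 and 6, at 1.99 and 2.83, were below the trough as all EtOH neurons were. Gpm6b, a proteolipid of neuronal and glial membranes, had 2.16, 2.76 and 11.25 in EtOH neurons and 2.41, 9.20 and 10.55 in PBS neurons, and the highest of all 13 was EtOH neuron 6. Tmem178b differed by -4.87, with 0 of 7 EtOH and 4 of 6 PBS neurons above the trough. Tubb5, a beta-tubulin abundant in developing neurons, had 2.38, 2.98, 2.72, 2.80, 2.61, 2.37 and 3.11 in EtOH neurons 1 to 7, against 11.78, 5.50, 3.57, 6.38, 4.82 and 6.55 in PBS neurons 1 to 6. Every PBS neuron lay above every EtOH neuron, although PBS neuron 3 was below the trough as all EtOH neurons were. Tubulin genes are similar in sequence, and no source used here tells how reads matching several of them were counted. Ndufv1, the subunit that holds the NADH site of complex I, had 1.32, 2.08 and 3.09 in EtOH neurons and 2.05, 6.22 and 9.93 in PBS neurons, where numbers 1, 4 and 6 were high.

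The largest higher mean was that of Cacybp (ENSMUSG00000014226, chromosome 1, 160202367 to 160212875), which encodes the calcyclin-binding protein that links a ubiquitin ligase complex to its targets. Its values were 6.53, 2.40, 10.28, 9.56, 6.20, 10.38 and 5.50 in EtOH neurons 1 to 7, against 3.28, 6.35, 1.68, 2.09, 1.50 and 1.05 in PBS neurons 1 to 6. EtOH neuron 2 lay among the PBS neurons, and PBS neuron 2 lay among the EtOH neurons. Membrane traffic gave the next 2 genes. Rab14, a GTPase of endosome and Golgi traffic, had 1.49, 10.27 and 10.74 in EtOH neurons and 1.45, 3.69 and 8.94 in PBS neurons, and EtOH neuron 5 was the only one of its group under 4. Chmp2a (chromosome 7, 13032010 to 13034807), a subunit of the ESCRT-III complex that cuts membrane necks, had 7.39, 9.61, 5.92, 5.38, 5.71, 6.39 and 1.21 in EtOH neurons 1 to 7, against 2.72, 2.73, 1.24, 1.50, 1.76 and 1.56 in PBS neurons 1 to 6. All EtOH neurons but number 7 lay above every PBS neuron.

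Mitochondrial and metabolic genes were also among the 15. Slc25a4, the ADP/ATP carrier of the inner mitochondrial membrane, had 7.59, 10.33 and 11.31 in EtOH neurons and 2.27, 4.91 and 10.64 in PBS neurons. It was above the trough in 7 of 7 EtOH neurons, while PBS neurons 2, 5 and 6 were below it. Cox4i1, a nuclear-encoded subunit of cytochrome c oxidase, had 5.87, 7.60 and 9.96 in EtOH neurons and 1.64, 3.59 and 6.96 in PBS neurons, with 7 of 7 and 3 of 6 above the trough. Hmgcs1, the HMG-CoA synthase of cholesterol synthesis, had 1.89, 5.68 and 10.43 in EtOH neurons and 1.53, 2.2 and 2.94 in PBS neurons. It was above the trough in 5 of 7 EtOH neurons and 0 of 6 PBS neurons. Pmm1, a phosphomannomutase that feeds sugar nucleotide synthesis, was above it in 4 of 7 and 0 of 6 and differed by 3.44. Exons of Cox4i1 and Hmgcs1 share 154 and 557 bases with genes of the opposite strand.

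Signalling and RNA genes made up the rest. Prkar2a, which encodes a type II regulatory subunit of PKA, had 1.46, 6.10 and 10.12 in EtOH neurons and 1.10, 1.74 and 2.41 in PBS neurons, so that its EtOH neurons fell in a low set of 3 and a high set of 4. Fgf13, an intracellular partner of voltage-gated sodium channels, had 1.01, 5.64 and 11.43 in EtOH neurons and 1.14, 1.82 and 4.07 in PBS neurons, with EtOH neurons 3 and 4 at 11.14 and 11.43. Rnf4, a ubiquitin ligase that acts on SUMO-modified proteins, had 2.52, 5.25 and 10.45 in EtOH neurons and 1.71, 2.53 and 3.16 in PBS neurons, and 5 of 7 EtOH neurons exceeded all 6 PBS neurons. The helicase gene Dhx36, which unwinds G-quadruplexes, the ribosome maturation factor gene Sbds, the transcription elongation scaffold gene Aff4 and the tRNA ligase gene Rtcb differed by 3.43, 3.31, 3.25 and 3.20. Each had 4 or 5 of 7 EtOH neurons above the trough and 0 or 1 of 6 PBS neurons. Cdr1 had 1.59, 5.69 and 10.00 in EtOH neurons and 1.50, 1.85 and 6.78 in PBS neurons, where number 5 was the exception. Cdr1 lies entirely within an exon overlap of 1554 bases with C230004F18Rik on the opposite strand, so reads of both cannot be told apart. For all 30 leading genes the difference stayed past 2 whichever neuron was left out, and they were chosen for its size in these same neurons.

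**Figure D2:**
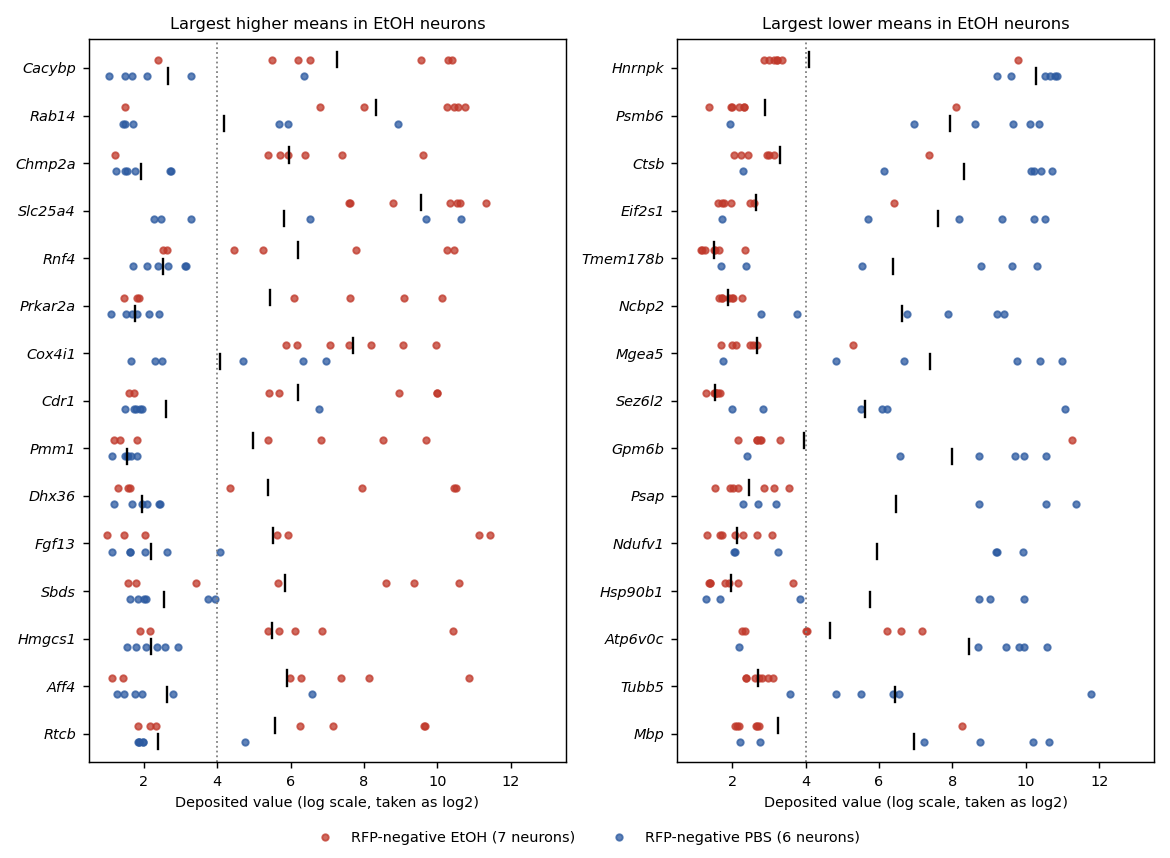
Deposited value (x axis, log scale taken as log2) of each RFP-negative neuron for the 15 genes with the largest higher means (left) and the 15 with the largest lower means (right) in EtOH neurons. Points are neurons (EtOH in red, above; PBS in blue, below), black bars are group means and the dotted line is the trough at 4. For Tubb5, Sez6l2 and Ncbp2 the groups do not overlap, and for Hnrnpk EtOH neuron 5 at 9.79 is the one EtOH value among the PBS values.

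Because the embryos were electroporated with a FLPo plasmid under a heat shock response element, the promoters of leading genes were read for the pair of inverted GAA units that forms the core of such elements. The motif letters searched were GAANNTTC and TTCNNGAA in the 250 bases before each gene start (RefSeq, GRCm38.p6). Each reads the same on both strands, and overlapping matches were both counted. At least 1 match was found in 12.8% of all 32851 RefSeq promoters and in 9.63% of the 1038 promoters of genes in the table. Of the genes at least 2 higher in EtOH neurons, 65 had an entry, with 83 promoters, of which 12% held a match. Of the genes at least 2 lower, 89 had an entry, with 128 promoters, of which 9.38% held one. The 4 promoters shown belong to the gene with the largest higher mean, the first with a match in that direction, the one with the most matches in the table and a gene whose groups did not overlap. They run 5′ to 3′ on the strand of the gene, with matches in capitals:

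Cacybp (chr1:160212893-160213142, minus strand): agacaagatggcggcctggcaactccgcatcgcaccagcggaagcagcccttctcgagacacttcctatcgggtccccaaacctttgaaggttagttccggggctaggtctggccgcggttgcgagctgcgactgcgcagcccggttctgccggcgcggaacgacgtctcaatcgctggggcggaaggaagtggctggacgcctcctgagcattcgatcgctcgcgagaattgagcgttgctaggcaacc

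Chmp2a (chr7:13034778-13035027, minus strand): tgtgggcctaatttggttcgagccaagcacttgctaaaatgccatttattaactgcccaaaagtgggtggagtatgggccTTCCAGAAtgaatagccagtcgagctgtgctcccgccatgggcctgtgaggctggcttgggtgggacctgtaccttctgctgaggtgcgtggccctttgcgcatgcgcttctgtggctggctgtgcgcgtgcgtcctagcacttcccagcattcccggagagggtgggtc

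Cdr1 (chrX:61185559-61185808, minus strand): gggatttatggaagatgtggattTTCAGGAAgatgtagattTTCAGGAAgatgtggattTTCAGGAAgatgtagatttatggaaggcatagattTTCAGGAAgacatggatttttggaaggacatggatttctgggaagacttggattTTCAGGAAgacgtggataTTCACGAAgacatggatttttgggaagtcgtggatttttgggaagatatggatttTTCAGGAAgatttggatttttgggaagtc

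Tubb5 (chr17:35838302-35838551, minus strand): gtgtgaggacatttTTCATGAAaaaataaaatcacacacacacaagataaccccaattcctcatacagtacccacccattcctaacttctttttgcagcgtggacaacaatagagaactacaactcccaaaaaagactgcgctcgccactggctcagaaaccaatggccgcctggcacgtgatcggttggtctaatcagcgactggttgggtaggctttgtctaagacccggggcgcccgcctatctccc

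Cacybp had 0 matches. Chmp2a had 1, starting 170 bases before the gene start, and Tubb5 had 1, starting 236 bases before it. Cdr1 had 7, inside a stretch that repeats a short unit, and the next highest number in a gene of the table was 3, for the ribosomal protein gene Rps18. A match is a description of the letters and not evidence of binding, and the genes with a match lay on both sides of the comparison.

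Mitochondrially encoded genes of the respiratory chain had the lowest median difference of the 29 lists with at least 4 measured genes, though not in 3 of the 21 other processing settings run, which include leaving out each neuron. Of the 13 genes of the respiratory chain encoded by mitochondrial DNA, 8 were in the table, all 8 had lower means in EtOH neurons (51.5% of all genes did; after upper quartile scaling mt-Co1 was higher), and 5 were at least 2 lower (11.3% of all genes were). Of these 5, mt-Nd4 differed by -1.60 without EtOH neuron 2 and mt-Nd5 by -1.93 without PBS neuron 2. The median difference of the 8 genes was -2.41, against -0.06 over all genes. For mt-Nd1, a membrane subunit of complex I, the values were 10.52, 11.40, 2.70, 2.62, 2.55, 10.75 and 7.20 in EtOH neurons 1 to 7, against 10.53, 9.41, 10.58, 12.52, 10.44 and 9.64 in PBS neurons 1 to 6. EtOH neurons 3, 4 and 5 were low, numbers 1, 2 and 6 lay within the PBS range and number 7 lay between. mt-Nd2, another complex I subunit, had 8.49, 7.92, 3.33, 3.25, 3.53, 9.47 and 7.68 in EtOH neurons 1 to 7, against 9.67, 10.09, 8.99, 7.50, 11.27 and 7.69 in PBS neurons 1 to 6, with the same 3 EtOH neurons low. The complex I gene mt-Nd6, encoded on the other strand of the mitochondrial genome, had 1.89, 2.59 and 10.39 in EtOH neurons and 5.83, 7.62 and 9.83 in PBS neurons.

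These 3 neurons did not lack every mitochondrial transcript. mt-Nd4 was above the trough in EtOH neurons 3, 4 and 5, at 6.45, 7.92 and 6.21, and below it in EtOH neurons 2 and 6. mt-Cytb, the cytochrome b of complex III, was 10.23 in EtOH neuron 5 and 2.95 in EtOH neuron 4. mt-Co1, the catalytic subunit of complex IV, had the smallest difference of the list, -0.46, or 0.38 without EtOH neuron 3. mt-Cytb and mt-Atp8 differed by -1.36 and -1.47, and by -0.33 and -0.77 without EtOH neuron 4. Of the other mitochondrial RNA genes in the table, the ribosomal RNA genes mt-Rnr2 and mt-Rnr1 differed by 0.09 and -2.68 and the transfer RNA gene mt-Ts1 by -1.68. For mt-Rnr2 the sign depended on single neurons, with -0.55 without PBS neuron 1 and 0.64 without EtOH neuron 3. The median of the 8 genes within a neuron was 9.35, 10.77, 3.58, 2.87, 4.92, 8.29 and 7.59 in EtOH neurons 1 to 7, against 9.96, 9.96, 9.14, 9.98, 10.06 and 7.85 in PBS neurons 1 to 6. EtOH neurons 1, 2 and 6 thus reached the PBS range on this measure, and the other 4 were below it. In EtOH neurons whose mt-Nd1 was above the trough it averaged 9.97, against 10.52 in PBS neurons, all of which were above it. The list median was -3.10 without EtOH neuron 1 and PBS neuron 6, and between -2.89 and -1.79 when single neurons were left out, the smaller size coming without PBS neuron 2. With arithmetic means it was -0.94, against -4.89 for the lysosomal list. In the 15 RFP-positive EtOH neurons the median of the 8 genes within a neuron was 2.95 at the lowest, 5.33 at the median and 10.41 at the highest.

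**Figure D3:**
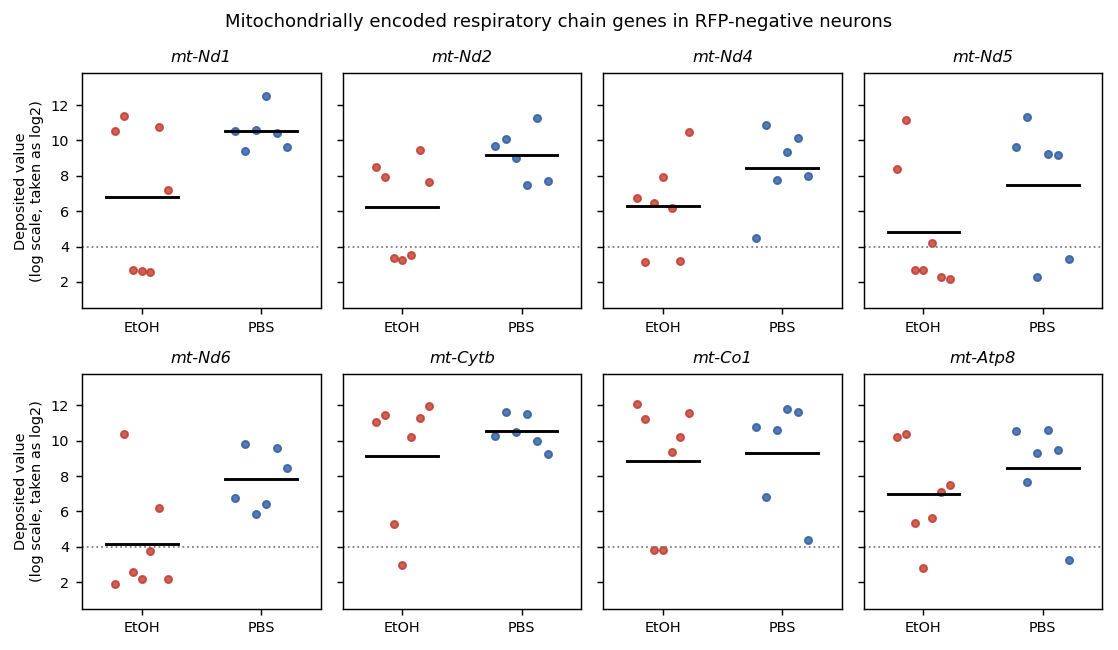
Deposited value (y axis, log scale taken as log2) of 8 mitochondrially encoded genes in 7 EtOH (left, red) and 6 PBS (right, blue) RFP-negative neurons, with group means as black bars and the trough at 4 as a dotted line. For mt-Nd1 and mt-Nd2 all PBS neurons are above 4 and 3 EtOH neurons are below it.

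Nuclear genes of energy metabolism went in both directions. The 9 measured genes for cytochrome c, its oxidase and complex III had a median of 1.23, and of 1.44 without EtOH neuron 1 and PBS neuron 6. Of these 9, 8 had higher means in EtOH neurons (48.5% of all genes did) and 3 were at least 2 higher (8.11% of all genes were). Besides Cox4i1 these were Cox6a1, another oxidase subunit, with 4.99, 7.11 and 10.26 in EtOH neurons and 2.05, 4.89 and 8.70 in PBS neurons, and Cycs, the electron carrier cytochrome c, with 6.32, 8.86 and 10.55 in EtOH neurons and 1.56, 6.58 and 10.82 in PBS neurons. Both were above the trough in 7 of 7 EtOH neurons, against 3 and 4 of 6 PBS neurons. The differences of Cox6a1 and Cycs were 2.51 (1.91 without PBS neuron 2) and 2.12 (1.17 without PBS neuron 2). Of the nuclear-encoded genes listed for complexes I and II, the 7 measured were all of complex I. Among these 7, 5 had higher and 2 lower means. Ndufs1 and Ndufb7 of complex I differed by 3.05 and 2.93, with 489 bases of Ndufs1 exons lying opposite another gene, while Ndufv1 differed by -3.82. Of the 9 genes for ATP synthase and the ADP/ATP carriers, 6 had lower means, with a median of -0.50 and of -1.19 over the 11 neurons, led by the catalytic-core subunit Atp5a1 at -3.24, with 4 of 7 EtOH and 6 of 6 PBS neurons above the trough. The carrier Slc25a5 differed by -1.05 (-0.20 without PBS neuron 4), against 3.73 for Slc25a4.

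Glycolytic genes mostly had higher means in EtOH neurons. Of 6 measured, 5 did so (48.5% of all genes did) and 2 were at least 2 higher (8.11% of all genes were). Their median was 1.34, or 1.15 over the 11 neurons and 0.75 without PBS neuron 3. Tpi1, triosephosphate isomerase, had 6.26, 8.11 and 10.67 in EtOH neurons and 2.70, 5.54 and 9.45 in PBS neurons, and was above the trough in 7 of 7 and 3 of 6. Its difference was 2.42 (1.80 without PBS neuron 3). Pgam1, phosphoglycerate mutase, had 1.57, 9.06 and 9.86 in EtOH neurons and 1.68, 3.75 and 8.87 in PBS neurons, a difference of 2.42 (1.81 without PBS neuron 5). The exception was Aldoc, the aldolase given above as an astrocyte marker. The 4 measured citric acid cycle genes had a median of -1.11 with 3 lower means. That median was -0.83 over the 11 neurons and -0.33 without PBS neuron 3.

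Chaperone genes of the cytosol, of which only 14 of the 37 listed were measured, showed no common direction. Of 14 measured genes, 6 had higher and 8 lower means, with a median of -0.47 that was -0.40 over the 11 neurons and 0.52 without PBS neuron 1. The HSP90 genes Hsp90aa1 and Hsp90ab1 differed by 1.06 and 1.32, and the constitutive HSP70 gene Hspa8 by -0.58. Without PBS neuron 5 the Hsp90ab1 difference was 0.62, and without EtOH neuron 2 that of Hspa8 was 0.49. Every PBS neuron was above the trough for these 3 genes, as was every EtOH neuron but 1 for Hspa8. Besides Cacybp, whose protein carries a CS domain like that of HSP90 co-chaperones, St13, a co-chaperone that links HSP70 and HSP90, was over 2, with 2.53, 6.57 and 9.64 in EtOH neurons and 1.56, 2.59 and 6.28 in PBS neurons. Sgta, another co-chaperone, differed by -2.24, and by -0.88 without PBS neuron 1. The endoplasmic reticulum list had a median of -1.04, and of -1.67 without EtOH neuron 1 and PBS neuron 6. In it 6 of 9 genes had lower means (51.5% of all genes did) and 2 were at least 2 lower (11.3% of all genes were). After Hsp90b1 these were the disulfide isomerases Pdia4 at -2.25 and Pdia3 at -1.62, and the HSP70 chaperone Hspa5 at -1.94. The Pdia4 difference was -0.79 without PBS neuron 1, that of Pdia3 -0.80 without PBS neuron 5 and that of Hspa5 -1.07 without PBS neuron 4. The stress transcription factor Atf4 differed by 0.23, or -0.37 without EtOH neuron 7. The 5 chaperonin and prefoldin genes had a median of 0.09 (0.15 over the 11 neurons), and Cct6a led at -2.19, or -1.07 without PBS neuron 1.

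Protein tagging and degradation lists diverged. Of 15 genes of ubiquitin and SUMO conjugation, 10 had higher means (48.5% of all genes did), 3 were at least 2 higher and 3 at least 2 lower (8.11% and 11.3% of all genes were), with a median of 0.99 and of 0.51 without EtOH neuron 1 and PBS neuron 6. Sumo2, a small protein modifier, had 2.91, 7.96 and 9.69 in EtOH neurons and 1.75, 2.79 and 9.48 in PBS neurons, with 6 of 7 and 2 of 6 above the trough. The ubiquitin-conjugating enzyme genes Ube2n and Ube2k differed by 2.99 and 2.18 (1.51 without EtOH neuron 4). Ube2d3, of the same family, differed by -2.12 (-1.03 without PBS neuron 4), and the ubiquitin-activating enzyme gene Uba1 by -2.09 (-0.98 without PBS neuron 3). Of 10 proteasome genes, 7 had lower means, but only Psmb6 was past 2 and the median was -0.26 (-0.28 over the 11 neurons). The lysosomal list had a median of -1.54 that was -1.77 over the 11 neurons and -0.59 without PBS neuron 4. Of its 6 genes, 4 had lower means (51.5% of all genes did) and 3 were at least 2 lower (11.3% of all genes were). Besides Ctsb and Psap these included the protease gene Ctsd at -2.57 (-1.36 without PBS neuron 3), while the tetraspanin gene Cd63 differed by 2.14 (1.11 without EtOH neuron 4). The 5 genes of the vacuolar proton pump had a median of -1.57, with 4 lower means, of -2.07 over the 11 neurons and of -0.51 without PBS neuron 1.

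The genes of 14-3-3 proteins, abundant adaptors that bind phosphorylated partners, had the highest median difference of the 29 lists over all 13 neurons, but not in 10 of the 21 other settings run. Of 6 measured genes, 5 had higher means in EtOH neurons (48.5% of all genes did) and 2 were at least 2 higher (8.11% of all genes were). The median was 1.56, or 0.86 without EtOH neuron 1 and PBS neuron 6, and 0.88 without PBS neuron 6 alone. In both of these settings the cytochrome list was higher, at 1.44 and 1.53. Ywhaq had 5.46, 10.03 and 11.06 in EtOH neurons and 3.62, 5.70 and 10.22 in PBS neurons, and Ywhab had 5.22, 9.53 and 10.66 in EtOH neurons and 1.10, 7.06 and 9.51 in PBS neurons. The Ywhab difference of 2.33 was 1.32 without PBS neuron 4. Within a neuron the median of the 6 genes was 9.48 at the lowest, 10.04 at the median and 10.66 at the highest in EtOH neurons, against 4.56, 8.58 and 10.07 in PBS neurons. On this median the PBS group spread widely and the EtOH group narrowly, while Ywhaq and Ywhab taken singly ranged widely in both groups.

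Calcium and cyclic AMP signalling genes had a median of 0.48 that was 0.09 without EtOH neuron 1 and PBS neuron 6 and 0.04 without PBS neuron 4. Of these 18 genes, 12 had higher means in EtOH neurons (48.5% of all genes did). After Prkar2a these were led by Camk2n1, an inhibitor of the kinase CaMKII, with 6.25, 8.57 and 9.85 in EtOH neurons and 2.05, 6.69 and 10.23 in PBS neurons, and by Camk2b, a subunit of that kinase, at 2.03. Without PBS neuron 2 the differences of Camk2n1 and Camk2b were 1.50 and 1.29. Prkar1a, a type I regulatory subunit of PKA, went in the opposite direction to Prkar2a, at -2.48 (-1.59 without EtOH neuron 6). The calmodulin genes Calm2 and Calm3 differed by 0.75 and 0.66, and Calm3 by -0.05 without PBS neuron 2.

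Synaptic and membrane excitability genes were mixed. Of 14 genes of synaptic vesicle release, 6 had higher and 8 lower means, with a median of -0.18 (-0.34 over the 11 neurons). Napa, which helps take SNARE complexes apart, had 3.52, 10.21 and 11.28 in EtOH neurons and 1.55, 5.67 and 10.16 in PBS neurons, and the vesicle SNARE gene Vamp2 had 3.38, 4.97 and 6.84 in EtOH neurons and 3.34, 8.04 and 9.88 in PBS neurons, a difference of -2.19 (-1.67 without PBS neuron 5). The autophagy gene Map1lc3b, listed with the proteins associated with the GABA-A receptor, differed by 2.36 (1.51 without PBS neuron 2). Of 6 sodium and calcium channel genes and partners, 5 had higher means with a median of 0.76 (0.57 over the 11 neurons), and only Fgf13 was past 2. The potassium channel gene Kcnc2 differed by -2.03, or -0.89 without PBS neuron 4. Kcnn2, the calcium-activated potassium channel gene named in the title of the series, was below the trough in all 13 neurons, with means of 2.18 ± 0.48 in EtOH neurons and 2.16 ± 0.34 in PBS neurons.

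The cytoskeleton list went in both directions, as did the table as a whole. Of 21 tubulin, neurofilament and motor genes, 11 had higher and 10 lower means (48.5% and 51.5% of all genes did). At least 2 higher was 1 gene and at least 2 lower were 4 (8.11% and 11.3% of all genes were). The list median was 0.11, or 0.10 over the 11 neurons. After Tubb5 the lower ones were the dynein heavy chain gene Dync1h1 at -3.46, the beta-tubulin gene Tubb4a at -2.95 and Map4 at -2.49 (-1.71 without PBS neuron 2), which encodes a microtubule-binding protein. The kinesin genes Kif5a, Kif5b and Kif5c, whose motors run along axons in the direction opposite to dynein, differed by 1.48, 1.27 and 2.05 (1.38 without EtOH neuron 5). Tuba1a, by contrast, differed by only -0.44 and was above the trough in 7 of 7 EtOH and 5 of 6 PBS neurons. Of 14 actin genes, Wasf1, a regulator of branched actin, differed by 2.68, while Arpc5, a subunit of the branching complex itself, differed by -2.90 (-1.80 without PBS neuron 1) and Actb by -2.51.

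Genes of RNA, ribosomes and chromatin had list medians between -0.42 and 0.27, against -0.06 over all genes. The 20 ribosomal protein genes had a median of -0.28, or 0.30 without EtOH neuron 1 and PBS neuron 6. Rps19 differed by 3.08 and Rpl14 by -2.14 (-1.48 without PBS neuron 6), and such genes have near-identical copies elsewhere in the genome. The 14 translation factors had a median of 0.27 (-0.09 over the 11 neurons) and the 17 splicing and hnRNP genes one of 0.01 (-0.17 over the 11 neurons), with Hnrnpk among them. Hnrnpa3, another hnRNP, differed by 3.12 and Hnrnph2 by -3.11. The 15 chromatin genes had a median of -0.42, or -0.82 over the 11 neurons, with 9 lower means. Among them the DNA methyltransferase gene Dnmt3a, above the trough in 0 of 7 EtOH and 2 of 6 PBS neurons, differed by -2.60, or -1.22 without PBS neuron 4. The chromatin protein gene Hmgb1 was above it in 7 of 7 EtOH and 2 of 6 PBS neurons, with 4.33, 7.19 and 10.02 in EtOH neurons and 2.67, 3.51 and 9.12 in PBS neurons, a difference of 2.19 (1.68 without EtOH neuron 2). Rad21, a cohesin subunit, did not overlap between the groups, with 2.39, 2.73 and 6.97 in EtOH neurons and 1.61, 2.11 and 2.15 in PBS neurons, and only EtOH neurons 1 and 2 were above the trough.

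**Figure D4:**
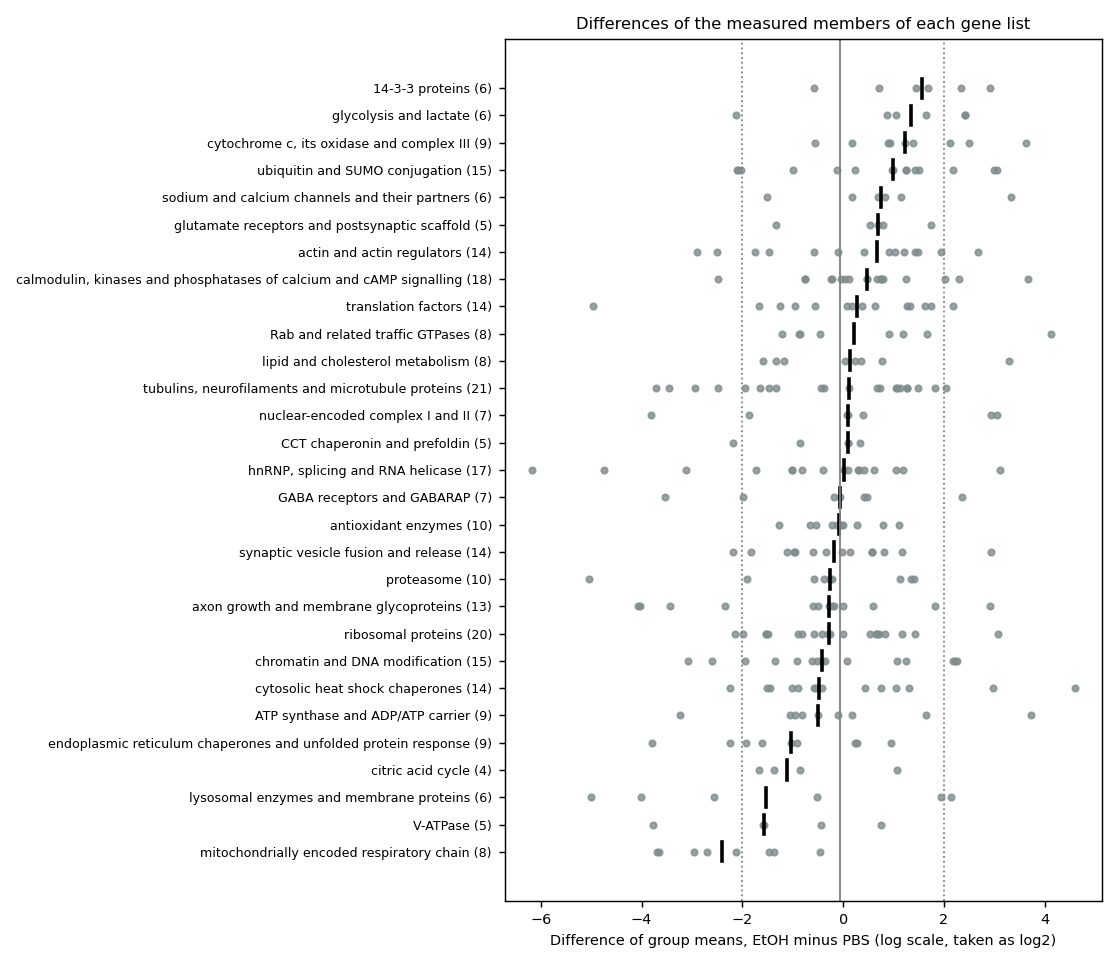
Difference of group means, EtOH minus PBS (x axis, log scale taken as log2), of each measured gene (grey points) in the 29 gene lists with at least 4 measured genes, ordered by list median (black bar), with the number of genes in brackets. The solid line is the median of all 1024 genes (-0.06) and the dotted lines mark differences of 2 and -2. The list medians run from 1.56 for 14-3-3 proteins to -2.41 for mitochondrially encoded genes.

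Of the other lists, the 10 antioxidant genes had a median of -0.08 (-0.03 over the 11 neurons) with 0 genes past 2, and the 8 Rab and traffic genes one of 0.22 (0.56) with only Rab14 past 2. The 8 lipid genes had a median of 0.14 (0.04 over the 11 neurons) with only Hmgcs1 past 2, and the 13 axonal and membrane glycoproteins one of -0.28 (-0.14) with 9 lower means. The immediate early genes Fos and Junb differed by -1.97 (-0.88 without PBS neuron 3) and -0.35 (0.34 without PBS neuron 6). The noncoding RNA gene Snhg11 differed by -3.15 and Akr1a1, the only measured gene of alcohol and aldehyde metabolism, by 0.35 (-0.83 without EtOH neuron 4). None of the 15 listed apoptosis regulators was among the genes of the table.

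The RFP-positive EtOH neurons also came from the EtOH group and differed in reporter state. Whether they shared dose and animals with the RFP-negative EtOH neurons was not stated. Their values stand beside those of the RFP-negative groups as a description. Cacybp had 1.65, 2.87 and 10.39 in the lowest, median and highest RFP-positive EtOH neuron, Chmp2a had 1.11, 2.64 and 8.96 and Rab14 had 1.07, 1.88 and 10.62. These genes had RFP-positive medians below the trough, as they did in PBS neurons, with the highest neurons near those of the RFP-negative EtOH group. Slc25a4 had 2.68, 9.85 and 11.28, with a median near that of RFP-negative EtOH neurons. Of the genes with lower means, Hnrnpk had 2.92, 4.26 and 10.25, Psmb6 had 1.38, 2.87 and 8.48 and Eif2s1 had 1.28, 2.40 and 6.13 in RFP-positive EtOH neurons, while Ctsb had 1.85, 5.65 and 12.23. Eif2s1 was above the trough in 2 of 15 RFP-positive EtOH neurons and Hnrnpk in 8 of 15. Atp6v0c had 1.86, 9.37 and 10.32 in RFP-positive EtOH neurons, a median nearer that of PBS neurons than that of RFP-negative EtOH neurons.

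**Figure D5:**
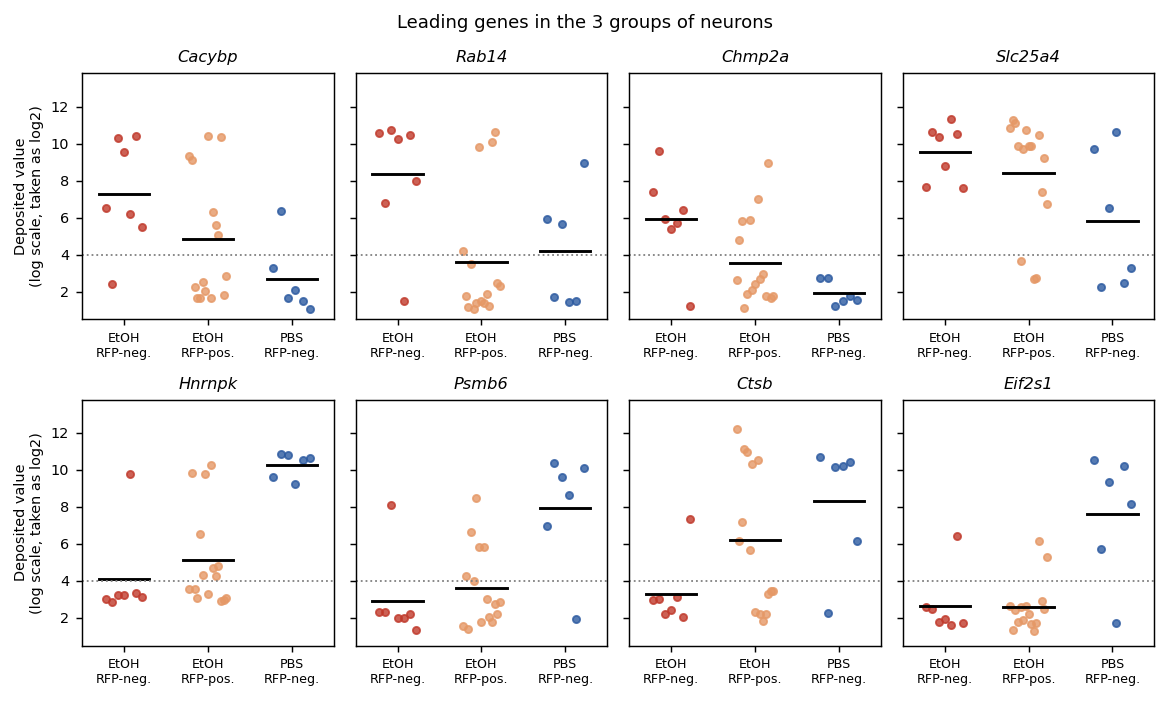
Deposited value (y axis, log scale taken as log2) of 4 genes with the highest positive and 4 with the most negative differences, in RFP-negative EtOH neurons (red, 7 neurons), beside RFP-positive EtOH (orange, 15) and RFP-negative PBS neurons (blue, 6), with group means as black bars and the trough at 4 dotted. For Hnrnpk 6 of 7 RFP-negative EtOH neurons lie under 4, and all PBS neurons lie above 9.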

How the data were processed

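Contents of single neurons were turned into libraries with SMARTer and Nextera XT kits, which do not keep strand, and sequenced as single reads, per the labels' protocols. Bowtie2, Cufflinks 2.2.1 and GRCm38 are named in the submitters' processing notes. The steps that led to the deposited values are not given in the sources used here. Deposited by the authors was 1 table of values on a log scale, treated as log2, for 1024 genes that passed an unstated cut-off and are thus a selection. Per the labels, the 28 columns held EtOH neurons (7 RFP-negative, 15 RFP-positive) and 6 PBS neurons, all RFP-negative. The design text counts 5 PBS neurons, and EtOH appears in the time course label of PBS samples. Titles and exposure labels were followed.

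Differences are means of EtOH minus means of PBS values, computed with Python 3.11.15, numpy 2.4.6 and pandas 2.3.3. No animal is named for any neuron, so neurons of 1 group may share an animal and no p-value is given. A gene counted as past the threshold at a difference of 2. Named were Kcnn2, the 15 largest differences in each direction (without pseudogenes, predicted genes and clone names), genes whose groups do not overlap, the members of each list past 2 or else its 3 largest, and all measured markers. Some genes that this rule names are not reported here. Other genes, such as Pdia3, Hsp90aa1, Calm2, Slc25a5, mt-Co1 and mt-Rnr2, were named after their values were seen, to show the rest of a family. The comparison, the lists and the rules were chosen with earlier results of these data known. Of 35 gene lists, 29 had at least 4 measured genes. The trough is the first minimum above the lowest mode of all 28672 values in bins of 0.25.

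Of 1024 gene identifiers, 1020 matched GENCODE M21. Exons of 45 of the 132 named genes overlap another gene, 36 of them on the opposite strand. Alternatives were other group summaries (medians, arithmetic means), scaling to 1 upper quartile or median, a pseudocount of 16, a filter, and leaving out neurons.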

Additional observations from a re-analysis of the deposited data

Results flagged for a closer look

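In groups of 6 or 7 neurons, the gap of 1 neuron to the nearest other was divided by the range of the group. The neuron was called far from the rest where this ratio exceeded Dixon's critical value for that number. For normally distributed values chance marks about 1 in 20. The values here had a trough at 4, and many groups were of genes chosen for their difference, so that rate is no measure here. The rule was applied to 124 groups of values and marked 23. Of these, 9 were a single EtOH neuron that stood high for a gene with a lower EtOH mean: EtOH neuron 5 for Hnrnpk at 9.79 and for Hsp90b1 at 3.65, EtOH neuron 3 for Psmb6 at 8.10 and for Mgea5 at 5.28, and EtOH neuron 7 for Ctsb at 7.37. EtOH neuron 6 stood out for Eif2s1 at 6.41 and for Gpm6b at 11.25, and EtOH neuron 1 for Tmem178b at 2.36 and for Mbp at 8.26. EtOH neuron 2 was low for Sez6l2 at 1.28, and EtOH neuron 5 was low for Rab14 at 1.49. Among PBS neurons, number 5 was high for Cdr1 at 6.78 and low for Rad21 at 1.61, and number 4 was high for Aff4 at 6.58 and for Rtcb at 4.76. PBS neuron 3 was low for Atp6v0c at 2.19, and PBS neuron 1 was high for Tubb5 at 11.78.

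Medians over the members of a list within 1 neuron gave the others. For the proteasome list EtOH neuron 4 was high at 5.24 and PBS neuron 4 at 6.74. For the GABA receptor list EtOH neuron 5 was high at 5.46 and PBS neuron 1 at 8.54. PBS neuron 3 was low for the vacuolar proton pump at 2.91, and PBS neuron 1 was high for the chaperonin list at 6.06.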

How the results depend on the processing

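The signs of all 87 named genes past 2 and of 10 of the 29 list medians were the same in the 21 settings run, and no gene past 2 or list median past it changed sign. Being chosen for size makes this likely. The 10 lists are the mitochondrially encoded, cytochrome, glycolysis, citric acid cycle, ubiquitin, lysosomal, endoplasmic reticulum, sodium and calcium channel, calcium signalling and 14-3-3 lists. The other medians changed sign in at least 1 setting. Arithmetic means in place of means of log values gave 204 genes at least 2 higher and 276 at least 2 lower, and medians of -4.89 for the lysosomal, -1.36 for the chaperonin and -0.32 for the lipid list. Upper quartile scaling gave 136 higher and 60 lower genes, and medians of 0.13 for the chromatin and 0.69 for the lipid list. A pseudocount of 16 gave 26 and 42 genes. Keeping the 658 genes above the trough in at least 3 neurons gave medians of 0.42 for the chromatin and 1.67 for the lipid list. Without EtOH neuron 1 and PBS neuron 6 the counts were 88 and 149, and without the 3 neurons with Gad1 above the trough 89 and 142. The cause of these shifts was not tested. Leaving out single neurons gave 78 to 94 higher genes, 111 to 151 lower genes and a lipid list median of -0.16 to 0.28. Of the 87 genes, 53 stayed past 2 whichever neuron was left out. No paired analysis was possible because the labels name no animal and the result comes from no test.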
